A study of Mus musculus with 58 samples.

Results

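Circadian clock genes were followed in hematopoietic stem cells (HSCs) under caloric restriction (CR), refeeding and knockdown of the receptor genes Kdr and Bmpr1a. The genes were 10 listed symbols, Per1, Per2, Per3, Cry1, Dbp, Nr1d1, Nr1d2, Arntl, Clock and Tef, of 55376 genes in the RNA-seq count tables. All 10 had counts in each of the 34 RNA-seq libraries, and the lowest count was 155, for Dbp in a young refed library. HSCs of the diet groups were sorted from bone marrow of wild type male C57BL/6 mice as lineage-negative, Sca-1+, c-Kit+ cells that lacked CD34 and Flk2 and carried CD150. Old mice of 24 to 26 months were fed ad libitum (OAL, n = 4 libraries), held at 40% CR from 3 to 4 months of age onward (OCR, n = 4), or held at CR and then given free access to food for 4 weeks (OCRRF, n = 2). The young groups, whose diets began at 3 to 4 months of age, had 4 libraries each. They were fed ad libitum (YAL) or held at CR of 20% for 1 week and 40% for 3 weeks (YCR). The third group was given free access to food for 4 further weeks after that CR (YCRRF). The age of the young mice at collection is not given in the sources used here. In the transplanted groups, HSCs from aged mice were transduced with lentiviral short hairpin RNAs, transplanted into lethally irradiated young female CD45.1 recipients and later sorted as CD48- CD150+ CD45.2+ cells of the Lin- Sca-1+ c-Kit+ gate. These were a Kdr knockdown (KdrKD, n = 4) with its GFP-marked scramble (GScr, n = 2), and a double knockdown of Kdr and Bmpr1a (DKD, n = 4, 2 libraries for each of 2 Bmpr1a hairpins) with its double scramble (DScr, n = 2). Animals lived in 12 h of light and 12 h of dark, and the hour of food delivery and of cell collection is not given in the sources used here. An effect of the diet and an effect of the hour of feeding or collection can therefore not be told apart in the diet comparisons. An effect of age or of a knockdown can likewise not be told apart from one of the hour of collection.

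The circadian clock of a mammalian cell is a loop of transcription. The proteins of Clock and Arntl (also called Bmal1) pair and activate genes that carry E-box elements, among them the Per, Cry, Nr1d and Dbp genes. PER and CRY proteins then return to repress the pair, the nuclear receptors of Nr1d1 and Nr1d2 (REV-ERB alpha and beta) repress Arntl through ROR elements, and the PAR bZIP factors of Dbp and Tef activate genes with D-box elements. Feeding time is a known time signal for clocks outside the brain, and the traffic of HSCs between marrow and blood is known to follow the day.

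The RNA-seq libraries held 11102898 to 36579392 counts in the diet groups and 35657999 to 44780217 in the transplanted groups, so counting error was small for each clock gene. The 7 HSC markers set for the check, among them Slamf1, Procr and Mecom, were detected in each library. Old libraries detected 42071 to 46646 genes, and young libraries 22209 to 33496. Summed counts over 1971 olfactory and vomeronasal receptor genes, which HSCs are not known to use, were 532 to 745 CPM (counts scaled to the normalized library size) in OAL, 563 to 1163 in OCR and 1076 to 1362 in OCRRF, against 72.6 to 553 in the young groups. This background moved with age and with refeeding of old mice, and its part in the results was not tested. Summed CPM of 7 granulocyte genes ran from 262 to 1575 in YCRRF, from 2.58 to 355 in YCR and from 3.56 to 646 in YAL. Of 8 lists of markers, 1 for HSCs and the others for other cell types, 0 had sums that did not overlap between OCR and OAL, YCR and YAL, or YCRRF and YCR, and those that did not overlap in other comparisons are given beside them.

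Of the clock genes, 4 changed in a comparison of old diet groups, Per2, Per3, Tef and Nr1d2. The stretch of 250 bases before the annotated start site is shown for the 3 that fell on refeeding, Per3, Tef and Nr1d2, from RefSeq on GRCm38.p6 (mm10), so that their elements can be read beside the levels and the PU.1 peaks. Capitals mark the PU.1 core GAGGAAGT in Nr1d2, the D-box TTATGTAA in Per3 and the E-box CACGTG in Tef. Each line reads 5′ to 3′ in the direction of transcription. Nr1d2 lies at chr14:18239107-18239356 on the minus strand, Per3 at chr4:151044666-151044915 on the minus strand, and Tef at chr15:81811164-81811413 on the plus strand.
Nr1d2: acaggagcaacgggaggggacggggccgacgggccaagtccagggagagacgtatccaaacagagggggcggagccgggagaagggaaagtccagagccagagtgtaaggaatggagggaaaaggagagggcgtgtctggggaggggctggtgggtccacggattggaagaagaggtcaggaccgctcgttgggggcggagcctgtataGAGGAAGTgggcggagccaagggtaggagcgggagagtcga
Per3: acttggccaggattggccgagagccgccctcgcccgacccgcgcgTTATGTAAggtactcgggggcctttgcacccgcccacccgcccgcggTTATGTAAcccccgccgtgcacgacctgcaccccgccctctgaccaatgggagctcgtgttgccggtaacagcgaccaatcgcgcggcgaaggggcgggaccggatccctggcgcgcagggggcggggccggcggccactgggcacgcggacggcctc
Tef: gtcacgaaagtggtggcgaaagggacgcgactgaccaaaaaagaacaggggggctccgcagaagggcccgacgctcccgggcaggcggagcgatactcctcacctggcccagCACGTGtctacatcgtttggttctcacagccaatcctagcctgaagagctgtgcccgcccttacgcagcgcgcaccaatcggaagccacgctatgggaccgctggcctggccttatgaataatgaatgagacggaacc
The PU.1 core of Nr1d2 began 41 bases before the start site, the D-boxes of Per3 205 and 158 bases before it, and the E-box of Tef 138 bases before it. Of the Nr1d2 stretch, 21 bases lie in an annotated exon. Tef has another annotated start site, whose promoter at chr15:81802423-81802672 is not shown. It also carried the E-box, 127 bases before that site, and all its 250 bases lie in annotated exons. RefSeq start sites with a promoter entry were matched for 9 of the 10 genes, with 14 promoters in all. Per2 had no promoter entry, so its promoter was not searched for any of these elements. On either strand, the E-box CACGTG was in 4 of the 14, from the 3 genes Per1, Cry1 and Tef, and in 6.02% of 32851 promoters of the same length. The D-box, searched as TTATGTAA or TTACGTAA, was in 1 of the 14 and in 0.931% of all. The variant E-box CACGTT was in 2 of the 14, those of Cry1 and Nr1d1, and in 3.85% of all. The PU.1 core was in 1 of the 14 and in 2.44% of all, and the shorter ETS core GGAAGT that it contains was in 4 of the 14 and in 19.7% of all. The ROR element TAGGTCA and the cAMP element TGACGTCA were in 0 of the 14 and in 2.23% and 1.55% of all promoters.

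Levels differed among the clock genes when set per length. On the scale of CPM per kilobase of exon, the median level over the 22 diet libraries was highest for Nr1d2, at 14.2. Cry1, Tef, Nr1d1 and Per3 followed with median levels of 7.10, 7.02, 6.92 and 6.45 CPM per kilobase. Dbp, Per2, Per1 and Arntl had median levels of 5.25, 5.13, 4.50 and 4.39 CPM per kilobase, and Clock was lowest at 3.14. The transplanted libraries, which were sorted and sequenced apart, had the same gene at the top, with Nr1d2 at 16.1 CPM per kilobase, followed by Cry1 at 11.9. Per1 stood last there, with a median level of 1.21 CPM per kilobase. All further levels are CPM, normalized for library composition and not for length, and are compared only within a gene.

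**Figure D1:**
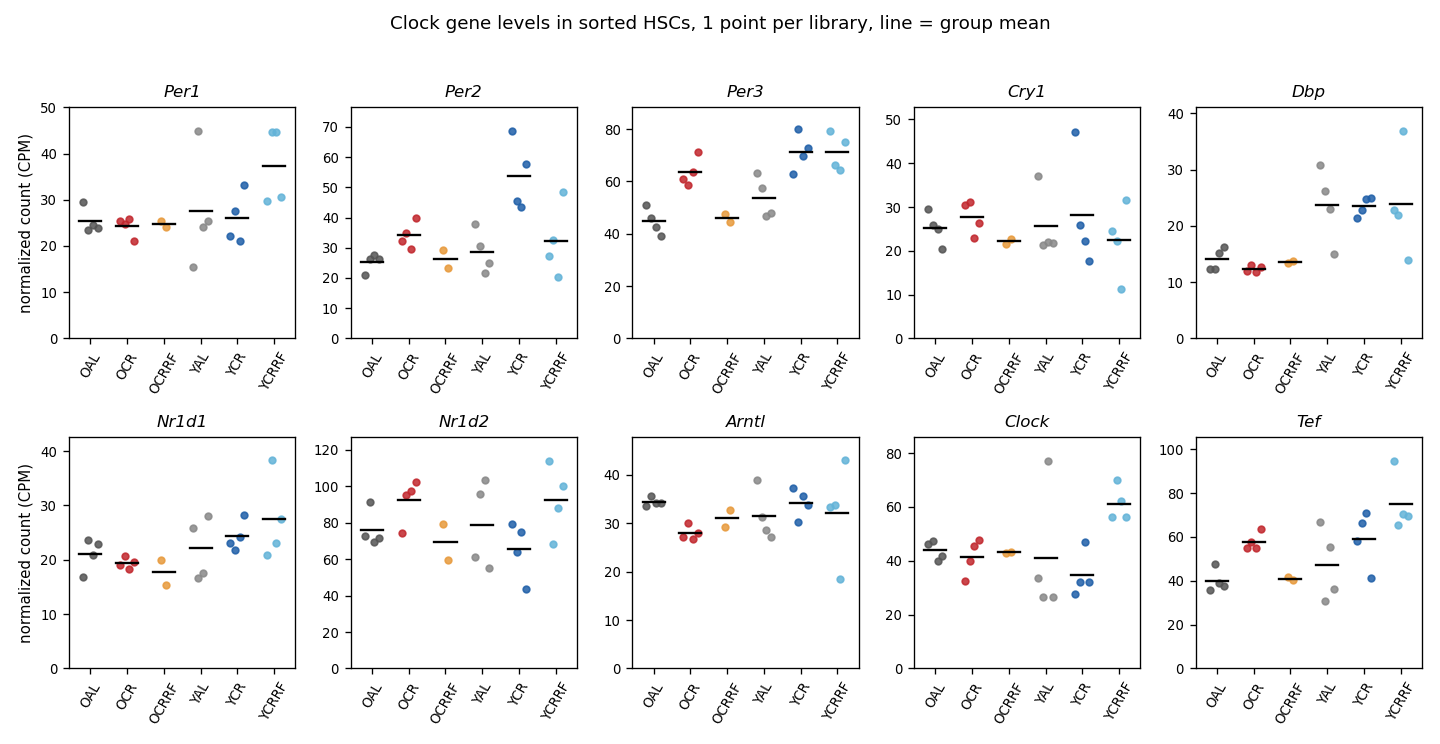
Normalized counts (CPM, linear axis from 0) of the 10 clock genes in the 6 diet groups, with 1 point per library and a line at the group mean. Per2, Per3 and Tef sit higher in all 4 OCR libraries than in all 4 OAL libraries.

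Across the 6 diet groups, the order of group means left most neighbours within each other's range. Of the 50 pairs of neighbouring groups in these orders, 4 had ranges that did not overlap. These were YCRRF above OAL for Clock, YCR above OCR for Per2, and YCR above OAL and OCRRF above OCR for Dbp. As a ratio of the highest to the lowest group mean, Per2 had the widest span, 2.125, from 53.8 ± 11.7 CPM (SD, n = 4) in YCR to 25.3 ± 2.87 (n = 4) in OAL. Dbp ran from 23.9 ± 9.51 CPM in YCRRF to 12.4 ± 0.580 in OCR, both with n = 4. Tef ran from 75.1 ± 13.2 CPM (SD, n = 4) in YCRRF to 40.0 ± 5.43 (n = 4) in OAL. Arntl had the smallest ratio, 1.228, from 34.4 ± 0.925 CPM in OAL to 28.0 ± 1.48 in OCR.

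Under lifelong CR, 3 clock genes had higher levels in old HSCs, the repressor genes Per2 and Per3 and the PAR bZIP gene Tef. Each stood higher in all OCR libraries than in all OAL libraries, by 1.36 to 1.46-fold. A gene was called changed in edgeR where its adjusted p was under 0.05 and it differed by more than 1.2-fold, and by this rule 5.57% of the 27150 genes tested were called. Of the 10 clock genes, 3 were called and all of these were higher. The median log2 change (the log2 of the fold difference) of the 10 was 0.05, against 0.02 over all genes tested. In bulk libraries, more cells with a transcript and more transcript per cell cannot be told apart, which holds for all results given here. The labels do not say that libraries came from separate animals, so the p-values measure the spread between libraries.

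Per2 (chr1:91415982-91459324), whose protein is a core repressor of the loop, had 21.1, 26.4, 27.5 and 26.3 CPM in the 4 OAL libraries and 32.3, 34.8, 29.5 and 39.7 CPM in the 4 OCR libraries. The lowest OCR library was above the highest OAL library. The log2 change was 0.45 (SE 0.111, edgeR adjusted p = 0.0122). This call was lost without OCR replicate 4 (adjusted p = 0.0624 in edgeR) and without OAL replicate 1 (adjusted p = 0.0729). Per3 (chr4:151003652-151044665), a paralog with a weaker part in the loop, had 51.0, 46.0, 42.6 and 39.3 CPM in OAL and 61.1, 58.7, 63.5 and 71.1 CPM in OCR. All OCR libraries were again above all OAL libraries, and the log2 change was 0.52 (SE 0.0939, edgeR adjusted p = 0.000423). Tef (chr15:81802421-81826863), a factor that binds D-boxes, had 35.6, 47.9, 38.8 and 37.6 CPM in OAL and 55.0, 57.9, 55.2 and 63.6 CPM in OCR. The groups did not overlap, and the log2 change was 0.55 (SE 0.0980, edgeR adjusted p = 0.000382). Tef shares 193 exon bases with Gm17597 on the other strand, and the strand setting of the counting is not given in the sources used here.

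Arntl (chr7:113207465-113314126), which encodes the partner of CLOCK, was not called, although its groups did not overlap. It had 33.5, 35.7, 34.2 and 34.2 CPM in OAL and 27.3, 30.1, 26.7 and 28.1 CPM in OCR. The log2 change was -0.28 (SE 0.0945, edgeR adjusted p = 0.0854), and DESeq2 called it with an adjusted p of 0.0286, as did edgeR on genes with at least 10 counts in every library (adjusted p = 0.0407). Nr1d2 (chr14:18204054-18239127), a repressor of Arntl, had a log2 change of 0.29 (SE 0.101, edgeR adjusted p = 0.101) with overlapping groups. Its OAL libraries had 72.6, 91.4, 69.3 and 71.3 CPM and its OCR libraries 74.4, 95.4, 97.1 and 102 CPM. Without OAL replicate 2 it was called with a log2 change of 0.41, and without OCR replicate 1 with one of 0.38.

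The other 5 genes, Per1 (chr11:69095217-69109960), Cry1 (chr10:85131700-85185064), Dbp (chr7:45705088-45710203), Nr1d1 (chr11:98767932-98775333) and Clock (chr5:76209868-76304792), overlapped between OAL and OCR. Their log2 changes ran from -0.17 for Dbp to 0.15 for Cry1, and their edgeR adjusted p-values from 0.606 to 0.892. The 95% interval of the Clock difference, -0.28 to 0.14 on the log2 scale, leaves out changes of the size seen for Per3 and Tef. The interval for Per1, a repressor that also responds early to stress hormones, was -0.26 to 0.16. Counted by overlap alone, 4 of the 10 genes had groups apart, against 11.5% of all genes tested.

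Refeeding of old restricted mice went with lower levels of Per3, Tef and the nuclear receptor gene Nr1d2. OCRRF libraries stood at 0.678 to 0.721 of the OCR level for these genes. By the same rule, 3 of the 10 clock genes were called, all lower, against 3.41% of the 32577 genes tested. The OCR libraries are shared with the comparison of OCR with OAL, so the directions of the comparisons are not independent of each other. The median log2 change over all genes tested here was 0.11, and the values relative to it are given beside the fitted ones. OCRRF had 2 libraries, and the receptor gene background was 1076 to 1362 CPM in them and 563 to 1163 CPM in OCR. Of the 8 marker lists, 2 had sums that did not overlap. The B-cell sum was 34.9 to 42.2 CPM with CR and 43.1 to 44.6 CPM after refeeding, the megakaryocyte sum was 58.8 to 113 CPM and then 46.2 to 53.3 CPM, and their part in the results was not tested.

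Per3 had 47.4 and 44.6 CPM in OCRRF, below the 58.7 to 71.1 CPM of OCR and within the 39.3 to 51.0 CPM of OAL. The log2 change from OCR was -0.53 (SE 0.127, edgeR adjusted p = 0.0109), or -0.64 relative to the median gene. Tef had 41.8 and 40.3 CPM in OCRRF, below all OCR libraries and within the range of OAL. Its log2 change was -0.56 (SE 0.128, edgeR adjusted p = 0.00685), or -0.67 relative to the median gene. Nr1d2 had 79.1 and 59.5 CPM in OCRRF, and its higher library lay within the OCR range of 74.4 to 102 CPM. Its log2 change was -0.47 (SE 0.136, edgeR adjusted p = 0.0423), or -0.58 relative to the median gene. Per3 and Tef were not called without either OCRRF library, with edgeR adjusted p-values from 0.125 to 0.332. For Nr1d2 the log2 change was -0.24 without OCRRF replicate 2 (edgeR adjusted p = 0.789, not called) and -0.73 without OCRRF replicate 1 (adjusted p = 0.0303, called). It was also not called without OCR replicate 2 (edgeR adjusted p = 0.115). With TMM factors taken from genes of at least 5 CPM, the Nr1d2 log2 change was -0.35 (edgeR adjusted p = 0.177).

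Per2 and Cry1, whose proteins act together as repressors, were below OCR in both OCRRF libraries without passing the rule. Per2 had 29.1 and 23.3 CPM in OCRRF, with a log2 change of -0.44 (SE 0.149, edgeR adjusted p = 0.0995). Cry1 had 21.5 and 22.8 CPM in OCRRF against 30.4, 31.2, 22.9 and 26.4 CPM in OCR, with a log2 change of -0.39 (SE 0.154, edgeR adjusted p = 0.171). DESeq2 called both, with adjusted p-values of 0.0278 for Per2 and 0.0476 for Cry1, and so did edgeR without OCR replicate 3, with 0.0282 and 0.0338. Counted by overlap alone, 5 of the 10 genes were apart between OCRRF and OCR, against 28.4% of all genes tested. Dbp was 1 of the 5, with 13.4 and 13.8 CPM in OCRRF just above 11.9, 13.1, 11.9 and 12.6 CPM in OCR, a log2 change of 0.07 (SE 0.167). Clock stood at 0.998 of its OCR level and Per1 at 0.972, with 95% intervals of -0.27 to 0.27 and -0.33 to 0.24 on the log2 scale.

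Against OAL, OCRRF libraries gave 0 called clock genes in edgeR, 0 with an unadjusted p below 0.05, and 0 in DESeq2, while 4.14% of 31816 genes were called and 26.9% had an unadjusted p below 0.05. Sums of 5 of the 8 marker lists did not overlap between these groups, with HSC and megakaryocyte genes lower and B-cell, granulocyte and stromal genes higher in OCRRF, and their part in these values was not tested. Per3 and Tef differed from OAL by 0.02 on the log2 scale, with 95% intervals of -0.18 to 0.22 and -0.20 to 0.23. Per2 differed by 0.03 (95% interval -0.22 to 0.28). These are on a scale where the median gene stood at 0.12, so relative to it the differences were -0.10 for Per3, -0.11 for Tef and -0.09 for Per2. Arntl, with 29.3 and 32.7 CPM in OCRRF, lay below all OAL libraries by -0.17 on the log2 scale (SE 0.0970, edgeR adjusted p = 0.258).

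**Figure D2:**
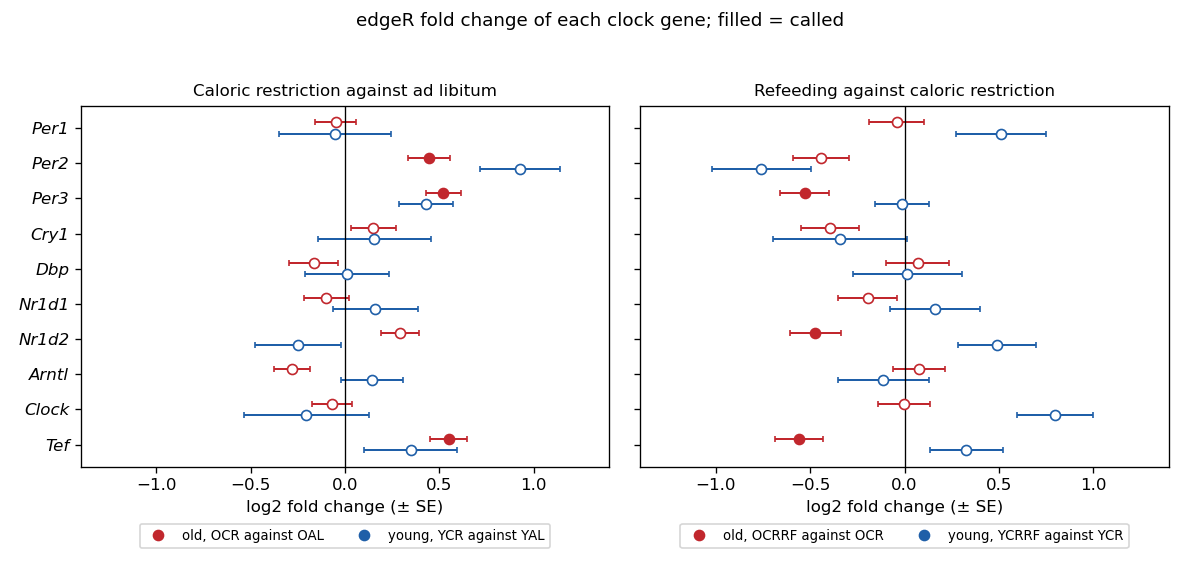
Log2 change of each clock gene in edgeR, as points with bars of 1 SE, for CR against ad libitum feeding (left) and refeeding against CR (right) in old and young HSCs. Filled points passed the rule for a change, which were Per2, Per3 and Tef on the left and Per3, Nr1d2 and Tef on the right, all in old HSCs.

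In young HSCs, short-term CR gave 0 called clock genes in edgeR, against 0.257% of 18680 genes tested. At an unadjusted p below 0.05 there were 2, Per2 and Per3, against 9.29% of all genes. DESeq2 called 1, Per2, among 511 called of 43742 genes. Per2 had 37.8, 30.6, 21.6 and 25.0 CPM in YAL and 68.5, 45.5, 43.4 and 57.9 CPM in YCR. All YCR libraries were above all YAL libraries, and the log2 change was 0.93 (SE 0.211, edgeR adjusted p = 0.122, DESeq2 adjusted p = 0.00237). Per3 had 63.2, 57.6, 46.7 and 47.8 CPM in YAL and 62.8, 79.9, 69.7 and 72.6 CPM in YCR. These groups met at their edges, with a log2 change of 0.43 (SE 0.144, edgeR adjusted p = 0.350). Tef overlapped widely, with 66.8, 30.8, 55.2 and 36.3 CPM in YAL and 58.2, 66.5, 70.8 and 41.4 CPM in YCR, and differed by 0.35 on the log2 scale (SE 0.249).

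The comparison of diets was less precise in young HSCs than in old ones. The SE of the log2 change of a clock gene between CR and ad libitum feeding was 0.144 to 0.331 in young HSCs and 0.0939 to 0.129 in old HSCs. Of the 10 genes, 0 had a response to CR that differed between old and young HSCs by the interaction test in edgeR, against 0.0424% of 28328 genes, and DESeq2 gave 0 as well. Arntl was the 1 gene of the 10 with an unadjusted p below 0.05 in it, against 8.93% of all genes, with a difference of -0.42 on the log2 scale (SE 0.170, edgeR adjusted p = 0.479). For Per2 the old minus young difference was -0.48 (95% interval -0.95 to 0.00, edgeR adjusted p = 0.607).

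Refeeding of young mice gave 0 called clock genes in edgeR, against 0.0102% of 19535 genes. At an unadjusted p below 0.05 there were 3, Clock, Per2 and Nr1d2, against 7.27% of all genes. DESeq2 called 1, Clock, among 355 called of 44556 genes. Clock, the activator with histone acetyltransferase activity, had 27.8, 32.2, 46.9 and 32.1 CPM in YCR and 56.3, 69.9, 62.2 and 56.2 CPM in YCRRF. The groups did not overlap, and the log2 change was 0.80 (SE 0.200, edgeR adjusted p = 0.265, DESeq2 adjusted p = 0.0175). Per2 had 27.4, 32.6, 20.3 and 48.4 CPM in YCRRF, with only its highest library inside the YCR range, and a log2 change of -0.76 (SE 0.263, edgeR adjusted p = 0.509). Nr1d2 had 79.4, 63.7, 75.0 and 43.5 CPM in YCR and 68.2 to 114 CPM over the 4 YCRRF libraries, with a log2 change of 0.49 (SE 0.209, edgeR adjusted p = 0.639). Of the YCRRF libraries, replicate 3 stood apart, with a chi-square per degree of freedom over genes of 153 to 336 against each of the others and 28.4 to 56.4 among those. Without it 0 clock genes were called in edgeR, and the log2 changes were 0.78 for Clock, -0.60 for Per2 and 0.50 for Nr1d2.

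Per3 and Tef were higher in YCRRF than in YAL without passing the rule. The comparison of YCRRF with YAL gave 0 called clock genes in edgeR and 0 in DESeq2, against 0% of 19334 genes called, and 2 at an unadjusted p below 0.05, against 3.69% of all genes. Per3 had 79.5, 66.5, 64.2 and 75.2 CPM in YCRRF, all above YAL, with a log2 change of 0.42 (SE 0.153, edgeR adjusted p = 0.995). Tef had 94.6, 65.3, 70.7 and 69.6 CPM in YCRRF, of which only 65.3 lay inside the YAL range, with a log2 change of 0.68 (SE 0.243, edgeR adjusted p = 0.995). Without YCRRF replicate 3 the log2 changes were 0.45 for Per3 and 0.69 for Tef. The granulocyte sums of YCRRF and YAL, given above, overlapped. B-cell genes summed to 43.8 to 59.9 CPM in YCRRF and 60.7 to 114 CPM in YAL, and their part in these values was not tested.

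An interaction of refeeding with age was added after the levels had been seen. It gave 0 called clock genes in edgeR, against 0.00291% of 34340 genes, and 0 in DESeq2. There were 4 old minus young differences with an unadjusted p below 0.05, against 6.38% of all genes, which were -0.90 for Nr1d2 (SE 0.301), -0.83 for Tef (SE 0.259), -0.74 for Clock (SE 0.271) and -0.46 for Per3 (SE 0.195) on the log2 scale. The edgeR adjusted p was 0.773 for each of them.

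Between ad libitum groups, age went with a lower level of Dbp, a PAR bZIP factor with a strong daily rhythm in many tissues. Dbp was the 1 clock gene called in OAL against YAL, where 14.8% of 23525 genes were called. It had 30.8, 26.3, 23.0 and 15.0 CPM in YAL and 12.4, 12.3, 15.2 and 16.3 CPM in OAL. The lowest YAL library lay within the OAL range, and the log2 change was -0.74 (SE 0.214, edgeR adjusted p = 0.0404). The call held without YAL replicate 3 or YAL replicate 4 and was lost in the other 6 cases of 1 library left out, with edgeR adjusted p-values up to 0.125. In the other old groups Dbp had 11.9 to 13.8 CPM, and in the other young groups 14.0 to 36.9 CPM. Dbp shares 539 exon bases with Sphk2 on the other strand. The receptor gene background and the number of genes detected differed between the ages, as given above, and so did B-cell genes, with sums of 36.2 to 41.1 CPM in OAL and 60.7 to 114 CPM in YAL. Their part in this value was not tested, and age cannot be told apart here from the hour of collection. The other 9 genes had edgeR adjusted p-values of 0.214 to 0.994. Without YAL replicate 3, Clock was called as well, at 0.61 on the log2 scale (edgeR adjusted p = 0.0124), since that library had 77.1 CPM of Clock against 26.4 to 33.5 CPM in the others of its group.

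In transplanted HSCs the targeted genes were read first. Kdr, the VEGF receptor, had 6.30 and 6.33 CPM in GScr and 2.02, 2.30, 3.43 and 2.13 CPM in KdrKD, a log2 change of -1.35 (SE 0.251, edgeR adjusted p = 0.247). In DKD it had 0.586 to 1.68 CPM against 4.16 and 4.85 CPM in DScr (log2 change -1.86, edgeR adjusted p = 0.272). Bmpr1a, a BMP receptor, had 4.60 and 0.692 CPM with hairpin 1 and 2.33 and 0.620 CPM with hairpin 2, against 5.45 and 4.64 CPM in DScr. The library with 4.60 CPM was labelled DKD and stood at the level of DScr for Bmpr1a. The difference between groups was -1.29 on the log2 scale (SE 0.717, edgeR adjusted p = 0.602).

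Kdr knockdown gave 0 called clock genes in edgeR, against 0.0149% of 20098 genes. DESeq2 called 1, Per2, among 261 called of 31225 genes. At an unadjusted p below 0.05 and over 1.2-fold there were 6, all lower, against 6.76% of all genes. Counted by overlap, 7 of the 10 genes lay below both GScr libraries in all 4 KdrKD libraries, against 22% of all genes with groups apart in either direction. Per2 had 41.9 and 38.0 CPM in GScr and 31.6, 27.7, 29.1 and 28.5 CPM in KdrKD, a log2 change of -0.45 (SE 0.0994, edgeR adjusted p = 0.278, DESeq2 adjusted p = 0.0203). Per1 had 9.57 and 15.7 CPM in GScr and 9.36, 5.59, 6.96 and 5.92 CPM in KdrKD. The highest KdrKD library was close to the lower GScr library, and the log2 change was -0.86 (SE 0.261, edgeR adjusted p = 0.392), with -1.17 without GScr replicate 1 and -0.46 without GScr replicate 2. Per3, Clock, Tef and Nr1d1 had log2 changes of -0.44, -0.37, -0.38 and -0.38, with edgeR adjusted p-values of 0.354 to 0.551. Cry1 and Arntl, the members not lower by sign, had log2 changes of 0.14 and 0.16. Of the 8 marker lists, 2 did not overlap, and their part in these values was not tested. HSC genes summed to 2503 to 2562 CPM in GScr and 2059 to 2285 CPM in KdrKD, and B-cell genes to 30.5 to 37.4 CPM and 38.4 to 55.5 CPM.

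The double knockdown gave 0 called clock genes in edgeR, against 0.00498% of 20072 genes. DESeq2 called 1, Per1, among 332 called of 30763 genes. At an unadjusted p below 0.05 and over 1.2-fold there were 5, of which 4 were lower and 1 higher, against 6.71% of all genes. Groups were apart for 6 of the 10 genes, against 21.2% of all genes. Per1 had 11.2 and 12.8 CPM in DScr, 6.61 and 5.80 CPM with hairpin 1 and 5.66 and 5.86 CPM with hairpin 2. All DKD libraries lay far below both scramble libraries, at 208 to 227 counts each, and the log2 change was -0.997 (SE 0.163, edgeR adjusted p = 0.219, DESeq2 adjusted p = 0.000129). Arntl had 27.7 and 23.1 CPM in DScr and 35.7, 35.9, 27.9 and 47.8 CPM in DKD. Its lowest DKD library was level with the higher scramble library, and the log2 change was 0.54 (SE 0.202, edgeR adjusted p = 0.450). Nr1d1, Per2 and Clock had log2 changes of -0.46, -0.39 and -0.36, with edgeR adjusted p-values of 0.396 to 0.472. Of the 8 marker lists, 4 did not overlap, and their part in these values was not tested. Monocyte and macrophage genes summed to 64.1 to 69.3 CPM in DScr and 23.7 to 38.7 CPM in DKD, and stromal and endothelial genes to 11.7 to 12.2 CPM and 1.15 to 4.31 CPM. HSC genes summed to 2204 to 2241 CPM in DScr and 1897 to 2162 CPM in DKD, and B-cell genes to 31.8 to 41.1 CPM and 45.0 to 57.6 CPM.

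Across all groups, Per1 was the clock gene with the largest gap between experiments. It had 5.59 to 15.7 CPM in the 12 transplanted libraries and 15.5 to 44.9 CPM in the 22 diet libraries. In the old diet groups alone, Per1 had 21.1 to 29.6 CPM. Sort, transplantation into a recipient and sequencing all differ between these sets, and the diet set also holds young mice. The values therefore stand side by side without a test.

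**Figure D3:**
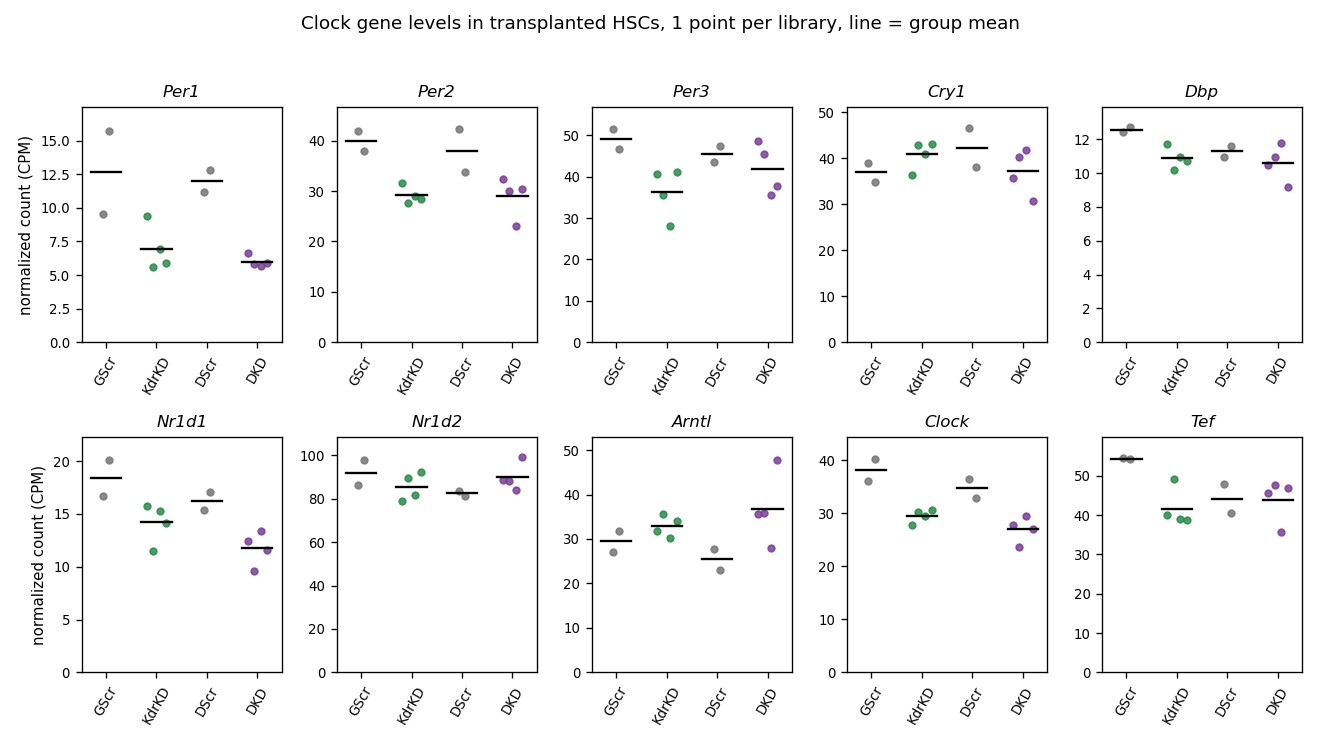
Normalized counts (CPM, linear axis from 0) of the 10 clock genes in transplanted HSCs, with 1 point per library and a line at the group mean, for both scramble groups and both knockdowns. Per1 and Per2 lie lower in all knockdown libraries than in their own scramble libraries.

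The chromatin data covered the start sites of all 10 genes. In ATAC-seq, which reads open chromatin from transposase cuts, 15 peaks lay within 1 kb of the RefSeq start sites and each gene had at least 1. Between OCRRF (n = 2) and OCR (n = 4), 0 of these peaks were called in edgeR at an adjusted p below 0.05, over 1.5-fold and a mean log2 CPM above 1.5, and 0 in DESeq2, against 0.221% of 123372 peaks. At an unadjusted p below 0.05 there were 2, at Cry1 and Dbp, against 11.7% of all peaks. The log2 changes ran from -0.09 to 0.26. The peak at the Nr1d2 promoter, at chr14:18238076-18239628, was the most open of the 15, with 151 and 144 CPM in OCRRF and 137 to 145 CPM in OCR. It differed by 0.07 on the log2 scale (95% interval -0.03 to 0.17), while the transcript was called lower. The Per3 peak, at chr4:151044203-151045235, had 56.5 and 52.2 CPM in OCRRF and 50.1 to 53.8 CPM in OCR, a difference of 0.08 (95% interval -0.06 to 0.22). At the Tef promoter shown above, the peak at chr15:81810627-81811774 had 53.1 and 45.7 CPM in OCRRF and 51.4 to 54.3 CPM in OCR, a difference of -0.09 (95% interval -0.24 to 0.05).

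PU.1, a factor of the ETS family that guides myeloid and lymphoid fate, had a peak at the Nr1d2 promoter in all 6 ChIP-seq libraries. Over all 25126 genes with a start site, 1.19% had a PU.1 peak within 1 kb in each library and 6.5% in any library. The fold enrichment at Nr1d2 was 7.45 and 13.2 in OAL, 12.6 and 11.9 in OCR, and 10.4 and 9.13 in OCRRF. The values of the diets overlapped with the spread between replicates, since the OAL replicates alone held both the lowest and the highest. All 6 peaks spanned the PU.1 core GAGGAAGT printed in capitals above, at chr14:18239140-18239147. The other 9 clock genes had no PU.1 peak within 5 kb of a start site in any library. Peaks were called by the authors in each library, and the 6 files held 2262 to 5464 peaks.

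**Figure D4:**
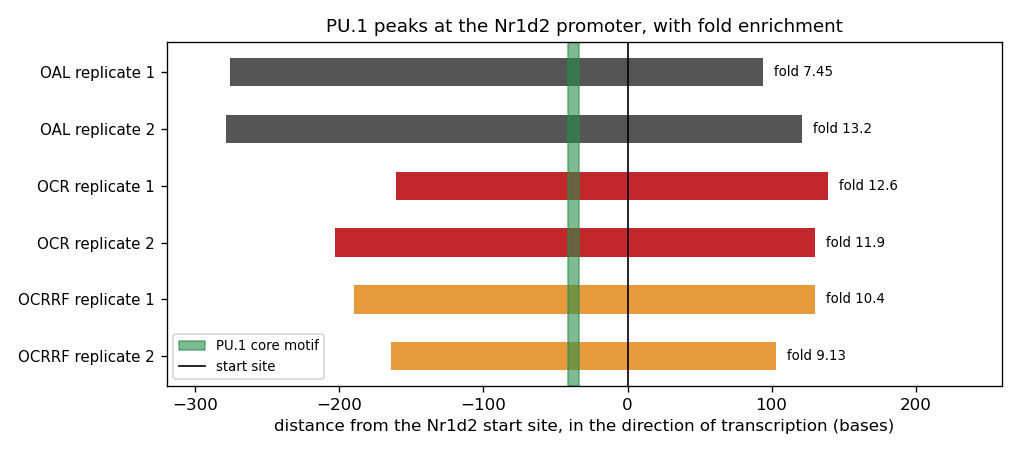
PU.1 peaks at the Nr1d2 start site in the 6 libraries, drawn to scale as distance in bases in the direction of transcription, with the fold enrichment of each peak. All 6 bars span both the start site and the PU.1 core, which begins 41 bases before it.

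Histone marks were available for OCR HSCs, with 2 libraries for each mark. H3K4me3 marks active promoters and H3K27me3 marks genes repressed by Polycomb. H3K4me3 signal over the 750 bp after a start site was above the median of 31552 windows, 10.2 and 9.64 per base in the replicates, at 1 or more sites of each clock gene. In replicate 1 it was highest at a Clock site, with 44.6 per base, and in replicate 2 at a Per1 site, with 37.1 per base against 36.7 at that Clock site. H3K27me3 over 2000 bp after a start site was low at most members and high at Arntl. The 2 Arntl sites had 4.33 and 4.46 per base, and 4.45 and 4.55 per base, at the 93.8th to 94.8th percentile of all windows. The other members had at most 0.421 per base, against medians of 0.312 and 0.316 over all windows. Arntl thus carried both marks in bulk OCR HSCs, with H3K4me3 of 30.2 and 27.0 per base at the more upstream site.

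**Figure D5:**
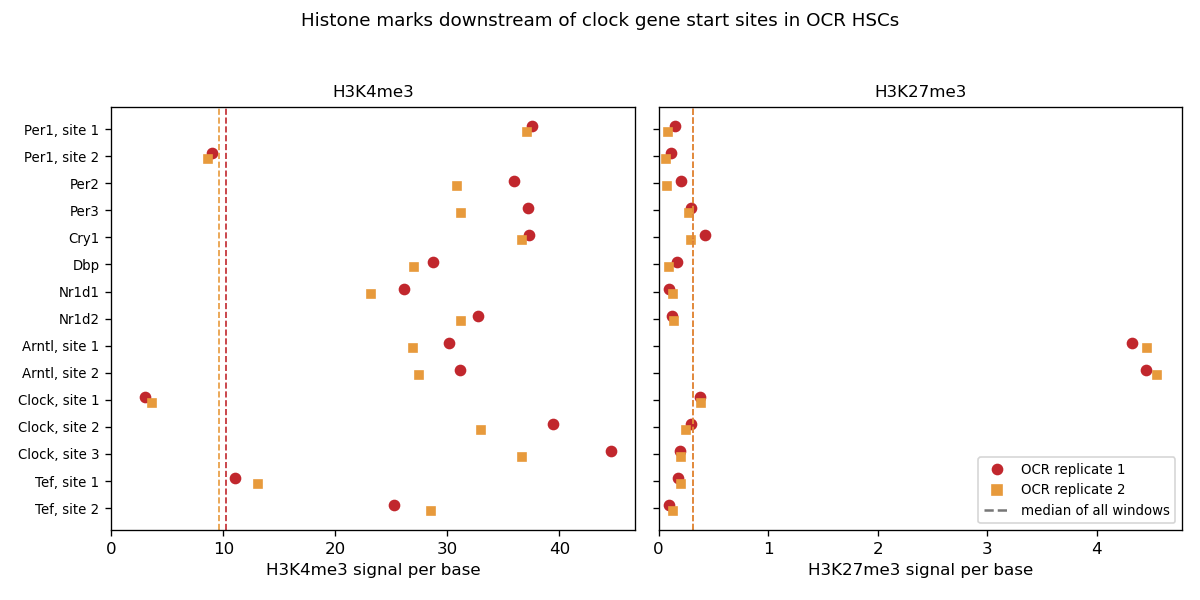
H3K4me3 and H3K27me3 signal per base after the 15 annotated start sites of the clock genes in OCR HSCs, with 1 point per replicate and dashed lines at the median of all windows. Both Arntl sites stand apart on the right with 4.33 to 4.55 per base of H3K27me3.

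Other genes of the clock were taken from a list of 22, which holds further core genes, modifiers and clock-linked genes. In OCR against OAL, 6 of the 22 were called in edgeR, 2 higher and 4 lower, against 5.57% of all genes tested. Among them were log2 changes of 1.05 for Timeless, a replication fork protein (SE 0.137), -0.77 for Bhlhe40 (SE 0.173), an E-box repressor, and 0.55 for Wee1 (SE 0.0985), a mitotic kinase. Of these, Timeless and Wee1 act in the cell cycle. On refeeding, 4 of the 22 were called in the comparison of OCRRF with OCR, against 3.41% of all genes. Among them were log2 changes of -1.25 for Timeless, -0.79 for Wee1 and 0.68 for Bhlhe40. In OCRRF against OAL, 4 of the 22 were called, all lower, against 4.14% of all genes. Among them were Rorb at -0.55, the PAR bZIP gene Hlf at -0.40 and Fbxw11, of a ubiquitin ligase for PER proteins, at -0.35. In OAL against YAL, 8 of the 22 were called, 4 in each direction, led by Rorb at 4.03, Bhlhe41 at 2.09 and Timeless at -1.02. YCR against YAL gave 0 called genes in edgeR, with 4 of 21 at an unadjusted p below 0.05 against 9.29% of all genes, and YCRRF against YCR gave 0, with 2 of 21 against 7.27%. Both knockdowns gave 0 of the 22 in edgeR, with 2 at an unadjusted p below 0.05 for KdrKD against 8.9% of all genes, and 1 for DKD against 9.85%.

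Inputs to the clock were followed with lists of glucocorticoid-induced genes, heat shock chaperones and cold-induced genes. Of 11 glucocorticoid-induced genes, 4 were called in OCR against OAL, against 5.57% of all genes tested. Mt2 and Mt1, the metallothioneins, and Klf9 were lower, at -1.38, -1.07 and -0.58 on the log2 scale, and Zbtb16 was higher at 0.54. In OCRRF against OCR, 3 of the 11 were called, against 3.41% of all genes, with Zbtb16 at -0.72, Klf9 at 0.54 and Fkbp5 at -0.42. In DKD against DScr, 0 of the 11 were called in edgeR. At an unadjusted p below 0.05 there were 7, all lower by sign, against 9.85% of all genes, and the list had a median log2 change of -0.40. In KdrKD against GScr, 0 were called, 3 had an unadjusted p below 0.05 against 8.9% of all genes, and the median was -0.11. A link of these values to Per1 was not tested. Of 11 heat shock chaperones, 4 were called higher in OCR against OAL, against 5.57% of all genes. These were Hsph1 at 0.59, Hspa8 at 0.54, Hspe1 at 0.38 and Hsp90aa1 at 0.34. The others were not called and ran from -0.24 for Hspa1b to 0.64 for Hspa1a, which had a mean log2 CPM of -1.12. In YCR against YAL 4 of the 11 were called higher too, against 0.257% of all genes. They were Hsph1 at 0.97, Hspa8 at 0.80, Hsp90aa1 at 0.56 and Hsp90ab1 at 0.35. OCRRF against OCR gave 2 of the 11, against 3.41% of all genes, both lower, with Hspe1 at -0.49 and Hsp90aa1 at -0.46.

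The cold-induced RNA-binding proteins Cirbp and Rbm3, which follow body temperature and act on clock transcripts, were both called lower in OCR against OAL, at -0.75 and -0.38 on the log2 scale. Rbm3 was called lower in YCR against YAL as well, at -0.69 (SE 0.104, edgeR adjusted p = 0.0285). Cirbp remained below OAL in OCRRF by the rule, at -0.49 (SE 0.132, edgeR adjusted p = 0.0471). Of 11 immediate early genes, 5 were called in OCR against OAL, 1 higher and 4 lower, against 5.57% of all genes tested. The largest changes were -1.13 for Jun, 0.67 for Btg2, -0.60 for Junb and -0.35 for Ier3. On refeeding, 2 of the 11 were called, against 3.41% of all genes. Jun and Junb were higher, at 1.24 and 0.52 on the log2 scale.

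Among the clock genes themselves, some pairs varied together from library to library. The values are Pearson r of log2 CPM over the 22 diet libraries, centred within each group, and the points share libraries, depth and composition. Per2 with Arntl had r = 0.77, Cry1 with Arntl 0.76 and Per2 with Cry1 0.64. For these 3 genes, YCRRF replicate 3 was the lowest and replicate 4 the highest library of their group. Arntl had 18.4 and 43.0 CPM in them, Cry1 11.3 and 31.6 CPM, and Per2 20.3 and 48.4 CPM. The r values were not computed without these libraries. Per1 with Tef had r = -0.81, Nr1d1 with Nr1d2 -0.58 and Per1 with Cry1 -0.53. Centred within age instead, so that diet differences count, Per3 with Tef had r = 0.66 and Per1 with Tef -0.24.

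Genes most like the members that changed within an age were sought over the same 22 libraries, centred within age, among 12272 genes that averaged 5 CPM or more. For Per2 they were Dach1, Akr1b10 and 4930519L02Rik (r = 0.82, 0.81 and 0.80). For Per3 they were Scd2, Hsp90b1 and Galnt6 (0.80, 0.80 and 0.78), and for Tef Magt1, Btg2 and Cnep1r1 (0.79, 0.79 and 0.78). For Nr1d2 they were Senp7, Vps13a and Polr3b (0.87, 0.85 and 0.82). The values describe likeness over libraries that share batch and depth, with no test.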

How the data were processed

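RNA-seq of sorted HSCs, ATAC-seq, and ChIP-seq of H3K4me3, H3K27me3 and PU.1 were used in 50 of the 58 labelled samples, and 8 OAL samples of ATAC-seq and histone marks were not analysed here. For RNA-seq, the authors trimmed reads with cutadapt, aligned them to mm10 with STAR and deposited featureCounts counts per GENCODE M22 gene, unnormalized. The strand setting and the treatment of multi-mapped reads are not given in the sources used here, so genes that share exon bases are uncertain. Besides Tef and Dbp, Nr1d1 shares 263 exon bases with Thra and Arntl 33 with Gm45355, each on the other strand. The cDNA kit differs between the labels and the study's methods. ATAC-seq values were counts of reads in 131918 consensus peaks that the authors made with BWA and MACS2. Histone values were a deposited signal per base after each start site. For PU.1, the authors deposited MACS2 peaks per library with a score, a fold enrichment (ratio) and −log10 p and q values, and the antibody is labelled for replicate 1 alone. The study lists read totals of its ChIP-seq libraries, which were not used here, and the deposited histone and PU.1 values carry no depth of their own.

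Tests on the counts used edgeR 4.0.16 under R 4.3.3 (filterByExpr, TMM, glmQLFit and glmQLFTest, two-sided, Benjamini-Hochberg over all features), each comparison on its own groups and interactions on 4 groups. The SE is the absolute log2 fold change over the square root of F, and 95% intervals are 1.96 SE on either side. CPM used TMM library sizes. The tests were tried on simulated counts before use. Libraries of a group differed by more than counting noise, so none was counted as a copy. ATAC-seq libraries held 15721335 to 19558148 counts in peaks. Figures were drawn with matplotlib 3.10.9. Alternatives were DESeq2 1.42.0, its size factors, TMM factors from genes of at least 5 CPM, no filter, at least 10 counts in every library, 1 fit of all groups, the replicate number as a block, and each library left out.

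All 10 genes are named in each comparison, and from other lists at most 4 called genes by the size of change, except 1 gene of the list of other clock genes, which is in its counts but not reported here. The members, lists and markers were chosen with earlier results of these data known.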

Additional observations from a re-analysis of the deposited data

Results flagged for a closer look

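In 4 of the 60 groups of 4 libraries tested (6.67%), 1 library stood apart from the others of its group by Dixon's test, which chance gives in about 1 of 20. Cry1 had 37.2 CPM in YAL replicate 1, against 21.4 to 22.1 CPM in the other YAL libraries. Clock had 77.1 CPM in YAL replicate 3, against 26.4 to 33.5 CPM in the others. Without that library the Clock difference of OAL from YAL was called, as given above. Nr1d2 had 91.4 CPM in OAL replicate 2, against 69.3 to 72.6 CPM, and without it Nr1d2 was called higher in OCR than in OAL. Tef had 49.1 CPM in KdrKD replicate 2, against 38.8 to 39.9 CPM in the other KdrKD libraries.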

How the results depend on the processing

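Lifelong CR gave the most stable calls: Per3 and Tef were called higher in OCR than in OAL in each alternative and with each library left out, and Per2 in each alternative and in 6 of 8 cases of a library left out. On refeeding of old mice, 3 clock genes were called, 5 with DESeq2 and 5 with the replicate block, and 0 to 5 with 1 library left out (0 without OCRRF replicate 2, 1 without OCRRF replicate 1, 5 without OCR replicate 3). The count of 1 for OAL against YAL was 0 with DESeq2's size factors, with TMM factors from genes of at least 5 CPM, with at least 10 counts in every library and with the replicate block, and 0 to 2 with 1 library left out. YCR against YAL and YCRRF against YCR gave 1 with DESeq2 and 1 with no filter. Kdr knockdown gave 1 with DESeq2 and 6 with the unadjusted p, and the double knockdown 1 and 5. The ATAC-seq count stayed at 0 in each alternative, and the PU.1 count at 1 gene. The cause of these moves was not tested.

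Of 880 values under the alternatives, 48 changed sign, 42 of them by less than their own SE, and of 940 with a library left out 88 did, 77 by less than the SE. No called value changed sign. The others were Per3 in DKD at 0.054 with hairpin 1 alone, Clock at 0.10 and Per1 at 0.081 in OCRRF against OAL with the TMM factors above, and, with the replicate block, Dbp at 0.12 and Per3 at -0.10 in the same comparison and Clock at 0.17 in OCRRF against OCR. With 1 library left out, the old minus young CR response ran from -0.34 to 0.37 for Clock, -0.21 to 0.35 for Cry1 and -0.32 to 0.24 for Per1. OAL against YAL ran from -0.30 to 0.24 for Per1, OCRRF against OAL from -0.39 to 0.022 for Nr1d2 and -0.15 to 0.17 for Per2, and OCRRF against OCR from -0.43 to 0.024 for Nr1d1. YCR against YAL ran from -0.40 to 0.28 for Clock, -0.19 to 0.38 for Cry1 and -0.26 to 0.29 for Per1, and YCRRF against YCR from -0.29 to 0.20 for Dbp. With DESeq2's size factors, 17 group levels moved by over 1 SD.

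Counts over all genes moved by over 1.5 times in most comparisons. OCRRF against OCR had 1110 called genes, 2349 with DESeq2 and 3437 with the block, and OCRRF against OAL 1316, with 108 to 4503 over the alternatives. YCR against YAL had 48 (7 to 511), YCRRF against YCR 2 (0 to 355), YCRRF against YAL 0 (0 to 52) and OAL against YAL 3486 (1651 to 7897). KdrKD had 3 (0 to 1359) and DKD 1 (0 to 1346, with 0 for the replicate block and for hairpin 2 alone). The interaction of CR with age had 12 (2 to 239) and that of refeeding with age 1 (0 to 45). In OCRRF against OCR 226 were higher and 884 lower, and 341 and 575 with TMM factors from genes of at least 5 CPM, where the median of all genes was 0.24 in place of 0.11. In OCRRF against OAL 528 were higher and 788 lower, and 754 and 54 with those factors. Same-numbered libraries did not deviate together (30 pairs, r from -0.20 to 0.18, and 8 of 30 correlated best with their own number), so the block has no pairing behind it. Depth limited little here, since each clock gene had at least 155 counts in each library.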

Other observations

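Genes of the lists of clock inputs were also compared between the ages, where 14.8% of 23525 genes were called. In OAL against YAL, 7 of 11 glucocorticoid-induced genes were called in edgeR, 5 higher and 2 lower, led by Mt2 at 3.57, Sgk1 at 2.13, Mt1 at 2.096 and Ddit4 at 1.68 on the log2 scale. Of 11 heat shock chaperones 6 were called, all lower, led by Hspe1 at -0.51, Hsph1 at -0.51, Hspa8 at -0.43 and Hsp90ab1 at -0.41. Of 11 immediate early genes 2 were called, Jun at 1.09 and Ier2 at -0.46, against the 14.8% of all genes. Neither cold-induced gene was called, and their median log2 fold change was 0.02. The old libraries carried more of the receptor gene background than the young, and its part in these values was not tested. Mt1 was the 1 gene of these lists with a called difference in CR response between the ages, against 0.0424% of 28328 genes. The difference was -1.03 on the log2 scale (SE 0.183, edgeR adjusted p = 0.0467).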
